A study of Homo sapiens with 18 samples.

Results

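The BCL2 family decides whether the mitochondrial route to apoptosis is opened, and 10 of its genes were followed here in human A549 cells after exposure to Ludox silica nanoparticles (NPs). They were BMF, BCL2L11, PMAIP1, BBC3, BID, BAX, BCL2, BCL2L1, MCL1 and BCL2A1. Members were taken by name: every non-control probe whose gene name in the scanner files was one of the 10, which gave 24 of the 41000 probes on the array. After probes missing on more than 33% of the 18 arrays had been dropped, 23 of the 24 were among the 28665 probes kept, and each of the 10 genes had at least 1 kept probe. The probe that was dropped, A_23_P154426, belongs to BCL2L11 and was measured on 11 arrays.

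A549 is a human lung adenocarcinoma epithelial line. All cultures, the controls included, spent 2 h in serum-free medium and then recovered in complete medium with serum, and the treated ones received NPs at 0.02 mg/mL (the dose given in the study's methods) during the 2 h. There were 6 groups of 3 arrays with replicate letters A, B and C: cells given SM30 NPs (9 nm diameter) with 3 h of recovery, cells given AS30 NPs (18 nm) with 3 h of recovery, cells given AS30 NPs with 22 h of recovery, each beside 3 control arrays of untreated cells taken through the same steps. The letters stand for biological replicates, and the treatments were carried out separately.

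Proteins of this family carry short BCL2 homology domains and act on the outer mitochondrial membrane. Those with only the BH3 domain (BMF, BCL2L11, PMAIP1, BBC3 and BID here) are sensors of damage or stress that bind and neutralise the anti-apoptotic members (BCL2, BCL2L1, MCL1, BCL2A1) or activate the effectors, of which BAX is one. Effectors form pores through which cytochrome c leaves, and caspases follow. Much of this control acts on the proteins, by binding, cleavage or turnover, and an mRNA level does not report it.

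The promoters of BMF, BBC3, PMAIP1 and BCL2A1 are shown so that their upstream sequence can be set beside the mRNA changes. Each gene had at least 1 probe called higher at 3 h, PMAIP1 after SM30 only. The brightest probes of BBC3 and BCL2A1 were not called. RefSeq (GRCh38.p14) listed a start site for 9 of the 10 genes (all but MCL1), 15 start sites in all, and the 250 bases before the start are printed 5′ to 3′ on the gene's strand. Capitals mark matches to the motifs searched on both strands: the AP-1 site TGANTCA, the cyclic AMP response element TGACGTCA, the CEBP-ATF site TGATGNAA, the FOXO site GTAAACA, the GC box GGGCGG, the p53 half-site and the NF-kB site. None of these motifs contains another.
BMF, first start site, chr15:40106967-40107216, minus strand: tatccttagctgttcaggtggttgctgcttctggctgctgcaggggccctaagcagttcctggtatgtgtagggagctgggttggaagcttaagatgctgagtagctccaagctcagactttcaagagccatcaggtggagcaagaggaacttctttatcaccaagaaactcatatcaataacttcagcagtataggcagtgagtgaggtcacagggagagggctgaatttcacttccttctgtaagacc
BMF, second start site, chr15:40108880-40109129, minus strand: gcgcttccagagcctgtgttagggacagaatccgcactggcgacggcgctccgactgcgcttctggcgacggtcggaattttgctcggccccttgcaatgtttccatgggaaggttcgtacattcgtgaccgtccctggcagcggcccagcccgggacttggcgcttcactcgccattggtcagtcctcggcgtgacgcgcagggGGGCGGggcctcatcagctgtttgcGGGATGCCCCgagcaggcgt
BBC3, chr19:47232668-47232917, minus strand: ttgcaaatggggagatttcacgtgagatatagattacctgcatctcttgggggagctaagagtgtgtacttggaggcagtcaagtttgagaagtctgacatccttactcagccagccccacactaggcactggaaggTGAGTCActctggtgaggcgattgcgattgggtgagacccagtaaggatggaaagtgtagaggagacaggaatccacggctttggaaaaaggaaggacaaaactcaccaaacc
PMAIP1, chr18:59899746-59899995, plus strand: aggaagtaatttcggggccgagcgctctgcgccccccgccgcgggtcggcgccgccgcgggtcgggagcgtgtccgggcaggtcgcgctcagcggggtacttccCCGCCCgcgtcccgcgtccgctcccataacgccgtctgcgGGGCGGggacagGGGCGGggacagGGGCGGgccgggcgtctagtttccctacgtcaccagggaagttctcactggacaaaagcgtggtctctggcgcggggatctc
BCL2A1, chr15:79971197-79971446, minus strand: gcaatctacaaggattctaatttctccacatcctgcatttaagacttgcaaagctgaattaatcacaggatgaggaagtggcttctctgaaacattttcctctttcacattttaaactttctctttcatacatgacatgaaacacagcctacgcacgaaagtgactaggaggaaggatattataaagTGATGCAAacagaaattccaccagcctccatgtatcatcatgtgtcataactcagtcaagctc
The first BMF window held no match and the second held 1 GC box and 1 NF-kB match, the latter 20 bases before the start. The BBC3 window held 1 AP-1 match and the BCL2A1 window 1 CEBP-ATF match, 113 and 63 bases before the start. PMAIP1 had 4 GC boxes. Among 35116 promoter windows of the same length, a GC box was found in 42.6%, AP-1 in 6.57%, NF-kB in 5.21%, and the CEBP-ATF site in 3.14%. These matches are descriptions of the letters only.

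All 6 epithelial markers examined (KRT7, KRT8, KRT18, KRT19, EPCAM, CDH1) were well above background on all 18 arrays by at least 1 probe. Among markers of other cell types, PTPRC, PECAM1, PDGFRB and COL3A1 were above background on no array, whereas COL1A1, CD68 and CD3E were above it on all 18 by at least 1 probe, and VWF and LYZ on 7 and 6. CDKN2A, a gene that A549 cells are known to have lost, had 1 probe above background on no array and another on all 18. The share of spots well above background ran from 51.9% to 72.4% per array, and no spot was saturated. Arrays lay on 5 slides. SM30 replicate A shared a slide with its 3 controls, and the 3 AS30 arrays at 22 h shared one with control replicate C. The AS30 arrays at 3 h shared none with their controls: all were on slide 2 and the controls on slide 1. Within that comparison, exposure to AS30 therefore cannot be told apart from slide.

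Signals are given as log2 of the quantile-normalised processed intensity, and a response is the log2 ratio of a treated array over the control array with the same letter. A probe was called when limma's adjusted p (Benjamini-Hochberg over all probes tested) was under 0.05. Levels of different probes are not set against each other.

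After SM30 at 3 h, 7 of the 23 probes were called, against 7.49% of all probes tested, in 6 genes. Of these 6 were higher (4.35% of all probes) and 1 was lower (3.13%). After AS30 at 3 h, 6 of the 23 were called, against 2.52% of all probes, in 5 genes, with 5 higher (1.5%) and 1 lower (1.01%). At 22 h after AS30, 2 of 23 were called, against 3.58% of all probes: BMF was higher (2.54% of all probes) and 1 BCL2L11 probe was lower (1.04%). The median response of the members was 0.31, 0.15 and -0.06 in the same order, and that of all probes -0.05, 0.01 and -0.0047. The 3 treated and 3 control arrays did not overlap for 13 of 22 probes measured on all 6 arrays after SM30 (43% of all such probes), for 9 of 20 after AS30 at 3 h (23.8%), and for 4 of 21 after AS30 at 22 h (23.9%). Each array measured the RNA of a whole culture, so a change in every cell and a change in the share of cells cannot be told apart.

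**Figure D1:**
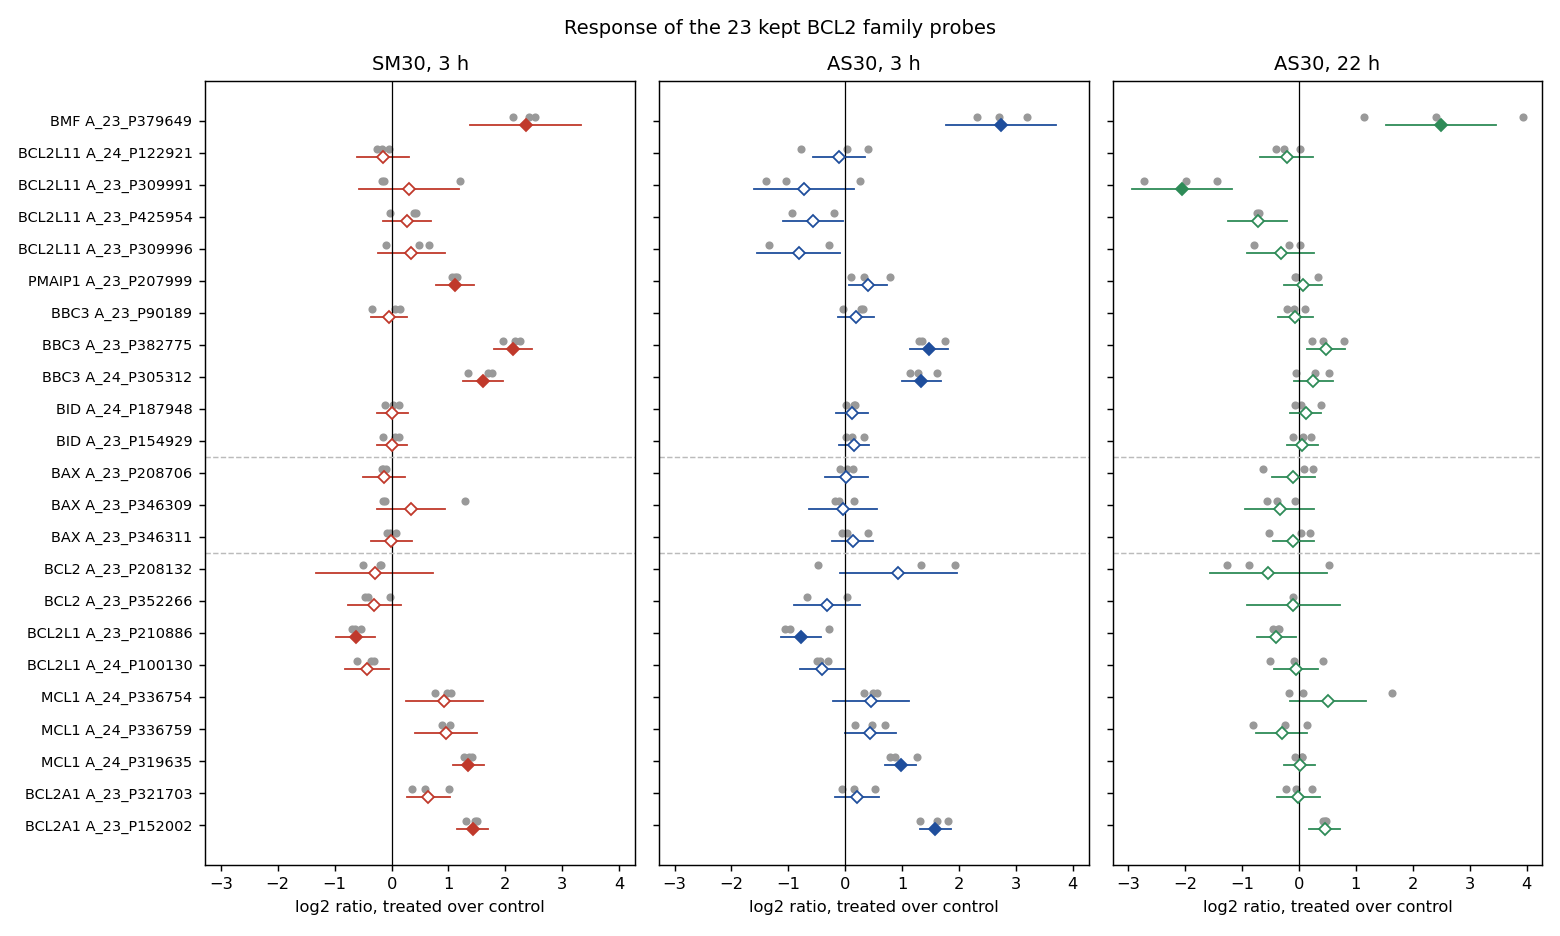
Log2 ratio of treated over control for the 23 kept probes, in order of role (BH3-only, effector, anti-apoptotic, parted by dashed lines), for SM30 at 3 h, AS30 at 3 h and AS30 at 22 h. Grey points are the pairs of arrays, diamonds the mean with its 95% confidence interval from limma, and filled diamonds are called probes. BMF stood to the right in all 3 panels, at 2.36, 2.74 and 2.50. The means of the 3 BAX probes and 2 BID probes stayed between -0.34 and 0.34.

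BMF, a BH3-only protein that is held on the cytoskeleton by dynein light chain and is known for cell death after loss of attachment, was the only one of the 10 genes called after all 3 exposures. Its single probe, A_23_P379649 (chr15:38167742-38167801 in hg18, minus strand), gave log2 signals of 8.80, 8.87 and 8.68 after SM30 and 6.27, 6.46 and 6.55 in the controls. After AS30 at 3 h the signals were 10.13, 9.23 and 9.50 against 7.42, 6.92 and 6.30. After AS30 at 22 h they were 8.36, 6.81 and 8.57 against 4.43, 5.67 and 6.16. Every treated array lay above every array of its own control group in all 3 comparisons. The probe was well above background on all 9 treated arrays, on all 3 controls of SM30, on 2 of the 3 controls of AS30 at 3 h and on 1 of the 3 at 22 h.

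The mean rise of BMF was 2.36 ± 0.43 (SE, n = 3 pairs) on the log2 scale after SM30, or 5.12-fold, with a limma adjusted p of 0.0169. It was 2.74 ± 0.43 or 6.67-fold after AS30 at 3 h (limma adjusted p = 0.0219), and 2.50 ± 0.43 or 5.64-fold at 22 h (limma adjusted p = 0.026). The 3 ratios at 22 h, 3.93, 1.14 and 2.41 (SD 1.40), were far more spread than those after SM30, 2.53, 2.41 and 2.13 (SD 0.20). Each SE of a response comes from 1 estimate of the spread shared by the 3 classes. The SE and limma adjusted p at 22 h therefore do not measure the wider spread of the 22 h pairs alone. In order of mean level, AS30 at 3 h (9.62 ± 0.46, SD) came before SM30 (8.78 ± 0.09), AS30 at 22 h (7.91 ± 0.96), the control of AS30 at 3 h (6.88 ± 0.57), the control of SM30 (6.43 ± 0.14) and the control at 22 h (5.42 ± 0.89). Neighbours in this order overlapped between AS30 at 22 h and the 3 h control, and between both 3 h controls.

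Each of the 3 BMF calls was lost when certain single pairs were left out. Leaving out any 1 SM30 pair raised the limma adjusted p after SM30 to between 0.0844 and 0.104. Leaving out AS30 pair A or B at 3 h raised it to 0.0783 or 0.0891 there, and leaving out pair A or C at 22 h to 0.0959 or 0.0779, with the 22 h response at 1.78 without pair A. Because the 3 classes share 1 estimate of the spread, leaving out an SM30 pair also moved the AS30 values at 3 h (0.0525 without A, 0.0524 without B) and at 22 h (0.0508 to 0.0582). With all spots kept, the value for AS30 at 3 h was 0.0501. The direction was upward in all of these runs. Without pair B the 22 h response was 3.17. Normexp background correction was tried in place of the scanner's own, here and below with an offset of 50 added to every intensity. The rise was then 1.00 after SM30, 1.37 after AS30 at 3 h and 0.77 at 22 h (limma adjusted p = 0.00434, 0.00561 and 0.0239). The folds given above thus depend on this choice. The parts of background removal and of the offset in it were not tested apart. With slide as a fixed block the rise was 2.37 after SM30, 1.50 after AS30 at 3 h and 1.76 at 22 h, with limma adjusted p of 0.0769, 0.884 and 0.459.

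**Figure D2:**
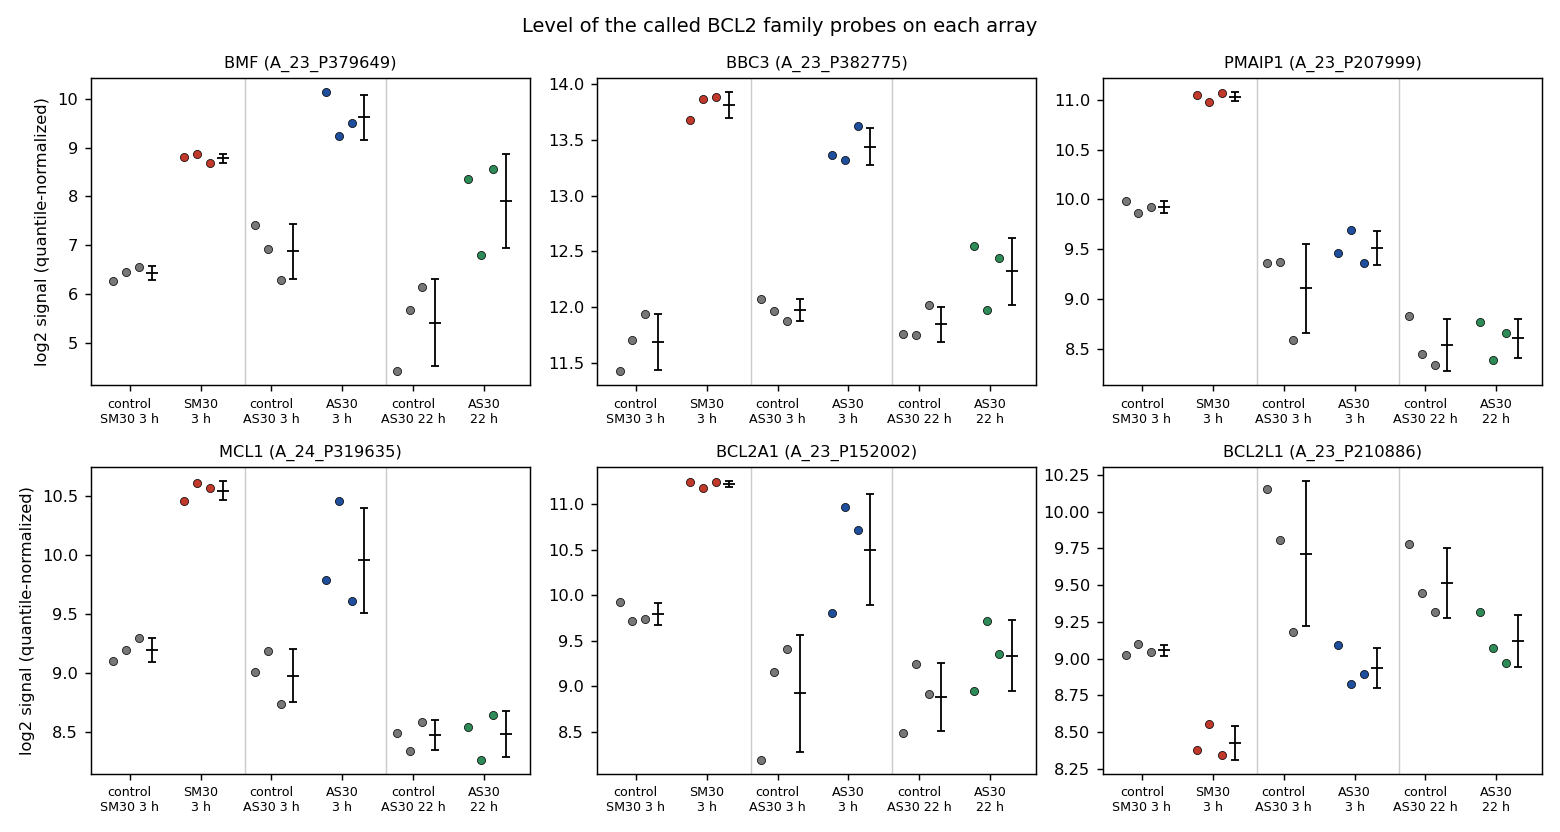
Log2 signal of 6 called probes on each array, by group, with points for replicates A, B and C from left to right and bars for mean and SD over 3 arrays. BMF was higher in all 3 treated groups, BBC3, MCL1 and BCL2A1 in both 3 h groups, PMAIP1 after SM30, and BCL2L1 was lower at 3 h.

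BBC3 encodes PUMA, a BH3-only protein known as a p53 target that binds all anti-apoptotic members. Its probe A_23_P382775 (chr19:52416014-52416073 in hg18) gave 13.68, 13.87 and 13.89 after SM30 against 11.42, 11.70 and 11.93 in controls, and 13.36, 13.32 and 13.63 after AS30 at 3 h against 12.07, 11.97 and 11.87. Treated and control arrays did not overlap in either comparison. The response was 2.13 ± 0.15 (SE, n = 3 pairs; limma adjusted p = 0.000505) after SM30, or 4.37-fold, and 1.47 ± 0.15 (limma adjusted p = 0.00657) after AS30, or 2.76-fold. At 22 h it was 0.48 ± 0.15 (limma adjusted p = 0.107), with 12.55, 11.97 and 12.43 against 11.76, 11.75 and 12.02. The second probe, A_24_P305312, responded by 1.60 and 1.34 at 3 h (limma adjusted p = 0.00175 and 0.0091) and by 0.25 at 22 h (0.361). With normexp background correction it responded by 0.89 and 0.75 at 3 h (0.00154 and 0.0111). These were the only members called with slide as a fixed block after SM30, at 2.00 and 1.60 (limma adjusted p = 0.0033 and 0.00817), while after AS30 at 3 h the blocked values were 1.48 and 1.39 (0.182 and 0.185). Without AS30 pair B the second probe had a limma adjusted p of 0.0519 at 3 h.

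The third BBC3 probe, A_23_P90189, which had the highest mean signal of the gene and so stands for it under the rule used, did not move with the other two. It responded by -0.04 ± 0.14 after SM30, 0.18 ± 0.14 after AS30 at 3 h and -0.06 ± 0.14 at 22 h (limma adjusted p = 0.872, 0.43 and 0.826), with 95% intervals from -0.36 to 0.27, from -0.13 to 0.50 and from -0.38 to 0.25. All 3 probes carry the same RefSeq accession in the files. In hg18 the flat probe lies at chr19:52423274-52423333, 6287 bases from the nearest of the others and, on the minus strand, upstream of them. Its mean signal was already 16.52 in the controls of SM30 and 17.32 in those of AS30 at 3 h. What the flat probe measures, and whether so high a signal could rise further after quantile normalisation, was not tested.

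**Figure D3:**
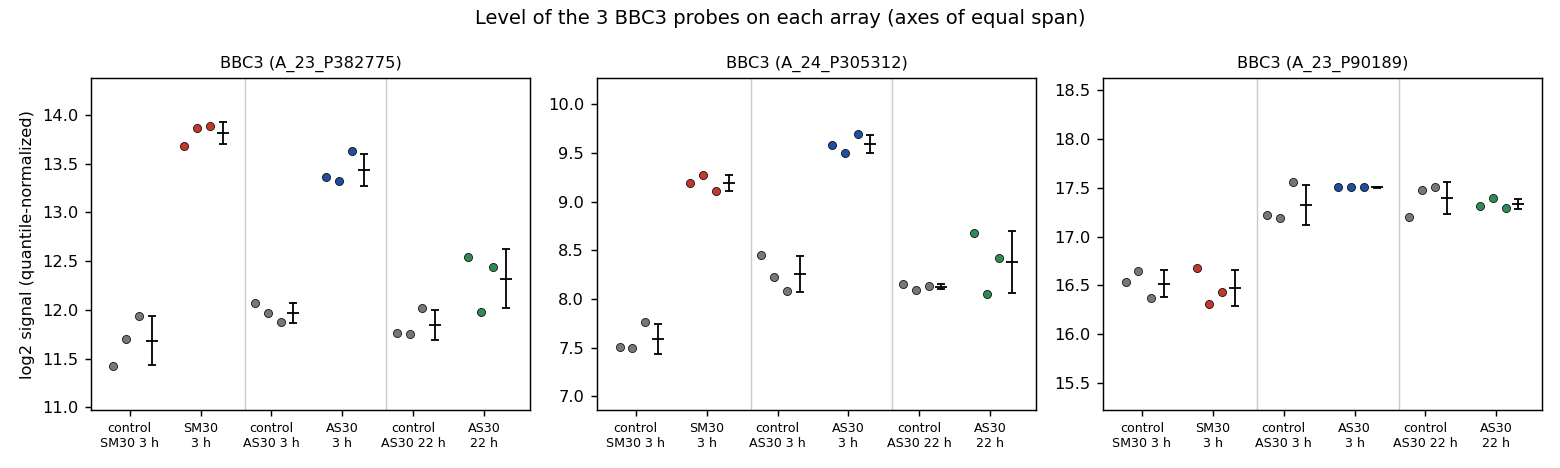
Log2 signal of the 3 BBC3 probes on each array, by group, on axes of equal span, with points for replicates A, B and C and bars for mean and SD over 3 arrays. The first 2 probes rose by 2.13 and 1.60 after SM30 and by 1.47 and 1.34 after AS30 at 3 h, and the third by -0.04 and 0.18.

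PMAIP1 encodes NOXA, a BH3-only protein that binds chiefly MCL1. Its probe A_23_P207999 (chr18:55721258-55721317 in hg18, plus strand), averaged over 10 spots, read 11.04, 10.98 and 11.07 after SM30 against 9.99, 9.86 and 9.92 in controls. After AS30 it read 9.46, 9.70 and 9.36 against 9.36, 9.37 and 8.58 at 3 h, and 8.76, 8.38 and 8.66 against 8.83, 8.44 and 8.33 at 22 h. The groups were apart after SM30 and overlapped in both AS30 comparisons. The response was 1.11 ± 0.15 (SE, n = 3 pairs; limma adjusted p = 0.00567), 0.40 ± 0.15 (0.15) and 0.07 ± 0.15 (0.82). The SM30 call was lost without SM30 pair B (limma adjusted p = 0.0529) or C (0.0514), and with slide as a fixed block (response 1.12, adjusted p = 0.0724).

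BCL2L11 encodes BIM, a BH3-only protein that can activate BAX directly. Its brightest probe, A_24_P122921, was flat, at -0.15, -0.11 and -0.22 in the 3 comparisons (limma adjusted p = 0.692, 0.772 and 0.566). The dim probe A_23_P309991 read 4.36, 5.76 and 4.20 after AS30 at 22 h against 7.08, 7.19 and 6.19 in controls, a difference of -2.05 ± 0.39 (SE, n = 3 pairs; limma adjusted p = 0.0325). On the 3 treated arrays it was not well above background, so the treated level is uncertain. Each treated array was then set to the higher of its own signal and the lowest signal of any probe well above background on it. On that footing the treated mean was 3.69-fold lower in this processing. The floor is not specific to this probe, which was not well above background even at 5.76, so 3.69 is not a lower limit. With normexp background correction the difference was -0.50 (limma adjusted p = 0.026). Probe A_23_P425954, which shares 46 of 60 bases of genome with it, differed by -0.72 at 22 h over 2 pairs (limma adjusted p = 0.119). The call was lost without AS30 pair A (-1.71, adjusted p = 0.179) or C (-2.08, 0.0958) at 22 h and without any SM30 pair (0.052 to 0.0642). At A_23_P309991 the mean level after AS30 was 4.77 at 22 h and 4.84 at 3 h. In the AS30 controls it was 6.82 at 22 h and 5.57 at 3 h, a difference of 1.25 (limma adjusted p = 0.243). The probe was well above background on 0 of 3 AS30 arrays at either time, so a step between times could not be read there. In the AS30 controls it was well above background on 3 of 3 arrays at 22 h and on 1 of 3 at 3 h.

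BID, a BH3-only protein activated when caspase-8 cuts it, showed no call in any comparison. Its 2 probes responded by 0.01 and 0.01 after SM30, 0.15 and 0.11 after AS30 at 3 h, and 0.06 and 0.12 at 22 h, and neither had an unadjusted p under 0.05 in limma. All of these 95% intervals lay between -0.26 and 0.42 on the log2 scale. BAX, the effector, was likewise called at 0 of 3 probes by limma in each comparison, with 0 at an unadjusted p under 0.05. The BAX probes lay between -0.34 and 0.34. The value of 0.34, at A_23_P346309 after SM30, came with a control replicate C at 10.00 beside 11.56 and 11.27 in the other controls.

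Of the anti-apoptotic genes, MCL1 and BCL2A1 each had a probe called higher at 3 h, in neither gene the brightest. MCL1, whose mRNA and protein are both known to turn over fast, read 10.45, 10.61 and 10.56 at probe A_24_P319635 (chr1:148817362-148817421 in hg18) after SM30 against 9.10, 9.19 and 9.30. After AS30 at 3 h it read 9.79, 10.45 and 9.61 against 9.01, 9.19 and 8.74, and at 22 h 8.54, 8.26 and 8.65 against 8.49, 8.33 and 8.58. The groups were apart at 3 h and overlapped at 22 h. The responses were 1.35 ± 0.12 (SE, n = 3 pairs; limma adjusted p = 0.00143), 0.97 ± 0.12 (0.0118) and 0.01 ± 0.12 (0.964). Without AS30 pair B the 3 h value after AS30 was 0.83 (limma adjusted p = 0.0607). The brightest MCL1 probe, A_24_P336754, and A_24_P336759 were not called, at 0.93 and 0.95 after SM30 (limma adjusted p = 0.0954 and 0.0517, the latter over 2 pairs) and 0.45 and 0.44 after AS30 at 3 h (0.369 and 0.206).

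BCL2A1, known as an NF-kB target that binds BIM and NOXA, read 11.24, 11.18 and 11.24 at probe A_23_P152002 (chr15:78050191-78050250 in hg18) after SM30 against 9.93, 9.71 and 9.74. After AS30 at 3 h the values were 9.81, 10.97 and 10.72 against 8.19, 9.16 and 9.41. Within each letter the treated array was higher by 1.62, 1.81 and 1.31, although both groups varied by over 1 unit between letters. The treated and control arrays did not overlap after either exposure. At 22 h they did, with 8.95, 9.71 and 9.35 against 8.49, 9.24 and 8.92. The responses were 1.43 ± 0.12 (SE, n = 3 pairs; limma adjusted p = 0.00115), or 2.69-fold, and 1.58 ± 0.12 (0.00398), or 2.98-fold, and at 22 h 0.45 ± 0.12 (0.0736). The brighter probe, A_23_P321703, was not called, at 0.64, 0.21 and -0.01 (limma adjusted p = 0.0529, 0.463 and 0.974).

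With slide as a fixed block the MCL1 probe responded by 1.26 after SM30 and 1.13 after AS30 at 3 h (limma adjusted p = 0.0568 and 0.518), and the BCL2A1 probe by 1.45 and 0.83 (0.174 and 1.00), so no anti-apoptotic gene was called in that fit. The AS30 arrays at 3 h and their controls also differed in the share of spots well above background, 62.5% to 67.1% against 52.4% to 61.9%, and its part in the AS30 results was not tested.

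BCL2L1 encodes BCL-XL, the abundant anti-apoptotic protein of many epithelial lines. Probe A_23_P210886, averaged over 10 spots, read 8.38, 8.55 and 8.34 after SM30 against 9.03, 9.10 and 9.05, and 9.09, 8.83 and 8.89 after AS30 at 3 h against 10.15, 9.80 and 9.18. It was the only anti-apoptotic probe called lower, by -0.63 ± 0.15 (SE, n = 3 pairs; limma adjusted p = 0.0434) and -0.78 ± 0.15 (0.0427). At 22 h it read 9.31, 9.07 and 8.97 against 9.78, 9.44 and 9.32, a difference of -0.40 (limma adjusted p = 0.173). The groups did not overlap in any of the 3 comparisons. Both calls sat at the threshold: each was lost when any 1 of 8 of the 9 pairs was left out, with limma adjusted p up to 0.206 after SM30 and 0.212 after AS30, and each kept its sign. With normexp background correction the difference after SM30 was -0.33 (limma adjusted p = 0.0857). The other probe, A_24_P100130, differed by -0.42, -0.42 and -0.06 and was not called (0.163, 0.18 and 0.87).

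BCL2, the founding member of the family, was not called, and its 2 probes could not be read together. A_23_P352266 was well above background on 1 array of 18. A_23_P208132 was above it on all 18 but varied from 11.31 to 13.46 within the controls of AS30 at 3 h, and its response there was 0.93 ± 0.45 (SE, n = 3 pairs; limma adjusted p = 0.242). Without pair C, which holds the control at 13.46, it was 1.63 (limma adjusted p = 0.0414), and with slide as a fixed block it was -0.52 (1.00). The responses after SM30 and after AS30 at 22 h were -0.30 and -0.54 (limma adjusted p = 0.727 and 0.515).

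The difference between particles was tested as SM30 response minus AS30 response at 3 h, each over its own controls, which asks whether the smaller particle moved a gene more. By limma 0 of 23 member probes were called (0.014% of all probes), and 4 had an unadjusted p under 0.05 (14.6% of all probes). PMAIP1 differed by 0.71 (95% interval 0.23 to 1.18, limma adjusted p = 0.246) and BBC3 A_23_P382775 by 0.66 (0.19 to 1.14, 0.257), both larger after SM30. BMF differed by -0.38, with a wide interval from -1.75 to 0.99. The PMAIP1 call after SM30 alone is therefore not shown to be a difference between particles. Particle type cannot be told apart from slide or scan day. Every array of the SM30 set, treated or control, was on slide 4 or 5 and scan day 2 or 3. Those of both AS30 sets were on slides 1 to 3 and scan day 1. The controls of SM30 and of AS30 at 3 h differed at 6 of 23 member probes (26.8% of all probes). The part of slide, scan day or culture in this was not tested. The difference between responses crosses the same split, and the effect of that was not tested either. PMAIP1 was higher in the SM30 controls by 0.82 (15.6% of all probes were higher), and BBC3 A_23_P90189, BBC3 A_24_P305312, BCL2L1 A_23_P210886, BCL2 A_23_P208132 and BAX A_23_P346309 were lower, with differences from -2.37 to -0.66 (11.1% were lower).

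The difference with recovery time, the AS30 response at 22 h minus that at 3 h, was also called at 0 of 23 probes by limma (0.0285% of all probes), and 7 had an unadjusted p under 0.05 (16.9% of all probes), all lower at 22 h. BCL2A1 A_23_P152002 differed by -1.12 (95% interval -1.51 to -0.74, limma adjusted p = 0.0786), BBC3 A_24_P305312 by -1.08 (-1.58 to -0.59, 0.114), BBC3 A_23_P382775 by -0.99 (-1.47 to -0.52, 0.115) and MCL1 A_24_P319635 by -0.96 (-1.35 to -0.57, 0.102). For BMF the difference was -0.24 (-1.61 to 1.13, 0.888), an interval that holds both a large loss and a gain. The controls at 22 h and 3 h differed at 0 of 23 member probes by limma (1.3% of all probes), 7 had an unadjusted p under 0.05 (14.9% of all probes), and BMF was lower at 22 h by -1.46 ± 0.47 (SE; limma adjusted p = 0.146).

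**Figure D4:**
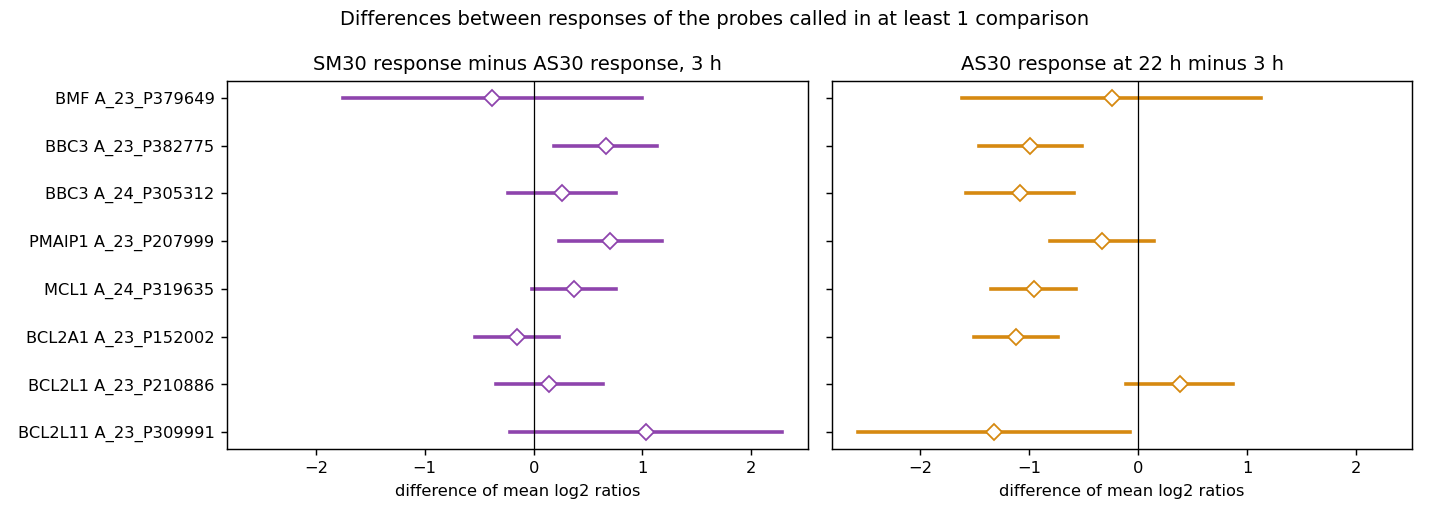
Difference between responses with its 95% confidence interval from limma for the 8 probes called in at least 1 comparison, for SM30 minus AS30 at 3 h and for AS30 at 22 h minus 3 h. No diamond is filled because none was called. The BBC3, MCL1 and BCL2A1 intervals lie below 0 in the right panel, and the BMF interval spans 0 in both.

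Other genes of the pathway were counted by list, against the 7.49%, 2.52% and 3.58% of all probes called in the 3 comparisons, or the 25.1%, 24.4% and 22.9% with an unadjusted p under 0.05. Of 13 further BCL2 family genes, 11 had a kept probe, 16 probes in all. After SM30, 4 of these probes rose, in 3 genes: BIK, a BH3-only protein of the endoplasmic reticulum (0.96), BNIP3L, a mitophagy receptor (0.60 and 0.57), and BCL2L13 (0.49), with limma adjusted p from 0.0304 to 0.0488. After AS30 at 3 h 0 of 16 were called by limma, with 7 at an unadjusted p under 0.05. At 22 h HRK, another BH3-only gene, rose by 1.89 (limma adjusted p = 0.0346) and BNIP3L by 1.00 and 0.66 at its 2 probes (0.0187 and 0.0459). The median response of the 16 was 0.23, 0.21 and 0.13.

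Of 13 genes that act downstream at the mitochondrion or the apoptosome (18 kept probes), only XIAP, an inhibitor of caspases, was called, higher by 1.14 after SM30 (limma adjusted p = 0.0214). After AS30 limma called 0 of the 18 at 3 h, with 1 at an unadjusted p under 0.05, and 0 at 22 h, with 0 at an unadjusted p under 0.05. Among 15 genes known to control BH3-only members (25 kept probes), DDIT3, the CHOP transcription factor of the stress response, rose by 1.30 after SM30 (limma adjusted p = 0.0327) and 1.38 after AS30 at 3 h (0.0493), and FOXO3, a transcription factor known to act on BIM and PUMA genes, rose at 2 probes after SM30 by 0.96 and 0.83 (0.0263 and 0.0219). At 22 h 0 of the 25 were called by limma, with 3 at an unadjusted p under 0.05. The dynein light chain genes DYNLL1 and DYNLL2, whose proteins hold BIM and BMF, were not called.

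Over the 18 arrays, the 5 genes of 17441 whose signal was most like that of BMF were PTPRH (Pearson's r = 0.956), MTURN (0.946), the transcript BF213738 (0.932), ANTXR2 (0.928) and ATOSA (0.928), against a median of -0.01 and a 95th percentile of 0.62 over all genes. The points share their groups and slides, so this is a description of pattern only. PTPRH, a receptor tyrosine phosphatase, rose by 1.85, 1.52 and 1.78 after SM30, AS30 at 3 h and AS30 at 22 h. Each gene entered by its brightest probe, which for BBC3 is the flat one, and on that footing the highest r among the other members was 0.59, for MCL1.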

How the data were processed

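Total RNA of 18 A549 cultures was hybridised to 1-colour Agilent arrays. The deposited scanner files hold, per the file headers, spot intensity from Agilent Feature Extraction 10.5.1.1, background-subtracted by that software, with probe positions in hg18. The authors also deposited a table of normalized intensity values, which was used as an alternative. The processed intensity was taken to log2 and quantile-normalised over the non-control spots, as the study's methods describe. Spots not positive and significant or marked as outliers were set to missing, spots of 1 probe were averaged, and probes missing on more than 33% of arrays were dropped. Treated over same-letter control log2 ratios (9 pairs, 3 classes, 6 residual degrees of freedom) were fitted with limma 3.58.1 in R 4.3.3. For the control groups, limma was fitted to the signals themselves, with 6 group means over the 18 arrays. The number of arrays limits the precision.

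The members, the other gene lists and the motifs were chosen with earlier results of these data known. All probes of the 10 genes are reported. A gene is represented by its kept probe with the highest mean signal. Of the other lists, genes with a called probe are named, and likeness to BMF is Pearson's r over 18 arrays. Of the 24 member probes, 21 carry an accession that RefSeq pairs with the same symbol. The replicate letters do not pair the samples by themselves: same-letter deviations from the group means correlated between -0.09 and 0.48, over 0.1 in 4 of 9 pairs. The methods divide by the corresponding control, so the ratios follow the letters. Alternatives changed the scaling, background, spot and missing-value filters, pairing, slide term and the pairs or control arrays included. The values of a further marker gene are not reported here.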

Additional observations from a re-analysis of the deposited data

How the results depend on the processing

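Over the alternatives, 2890 values counted as unchanged, 65 lost the call and 17 gained it. A further 8 within-slide values moved by more than the spread between pairs, and 0 called values changed sign. Unchanged means the same side of the threshold or, within a slide, a value inside the spread between pairs. Values called in neither fit counted as unchanged even where their sign changed, so the count of unchanged values does not measure how stable the calls were. Of the 15 calls of treated against control, 6 were kept whichever pair was left out and 9 were lost in some of these runs. With slide as a fixed block the member calls were 2 after SM30 at 3 h, 0 after AS30 at 3 h and 0 after AS30 at 22 h, against 7, 6 and 2. The AS30 arrays at 3 h shared no slide with their controls, so that fit compares them only through the 22 h controls. With all spots kept, 1 probe was called at 22 h, BMF. Leaving out 1 pair gave 4 to 8 calls after SM30, 2 to 7 after AS30 at 3 h, 0 to 3 at 22 h, 0 to 0 between particles and 0 to 1 between recovery times. Between controls, leaving out 1 control array gave 0 to 1 calls for 22 h minus 3 h and 5 to 7 for SM30 minus AS30. Those with 22 h controls include PMAIP1 without the AS30 control replicate C at 3 h (-0.83, limma adjusted p = 0.0113). The fewest calls came without SM30 pair B or C (4), without AS30 pair B at 3 h (2), and without AS30 pair A or C or any SM30 pair at 22 h (0).

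The fit with no replicate block called 6, 6 and 2 member probes, losing BCL2L1 after SM30 (limma adjusted p = 0.0628), and 1 between recovery times, BBC3 A_24_P305312 (-1.08, limma adjusted p = 0.048). With slide as a random block, whose estimated correlation was -0.08, 2 BBC3 probes were called between recovery times. The pairing by letter changed no other call among the members. Scanner signal limits what can be read from BCL2 A_23_P352266 and from 4 of the 5 BCL2L11 probes, which were well above background on at most 10 of 18 arrays.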
